A study of Ovis aries with 8 samples.

Results

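The genes of the brain's vessel wall were examined in the mediobasal hypothalamus of food-restricted and well-fed ewes. The 35 genes were chosen by name as markers or working parts of blood-brain barrier endothelium, pericytes and vascular smooth muscle, out of 33609 genes in the count table. The table holds 34 of them under their own symbol. ABCC9 was found by its gene ID (101117577), which the table lists under a LOC name and which RefSeq pairs with that symbol in the assembly ARS-UI_Ramb_v3.0. All 35 had enough reads to be tested, among 18193 tested genes. They fall into 5 junction genes, 7 receptors, 3 transcription factors, 5 surface or secreted proteins, 7 barrier transporters, 5 pericyte genes and 3 smooth muscle genes.

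The tissue came from adult Ile-de-France ewes, food-restricted or fed freely, with 30 ewes per group in each of 2 years. RNA of 15 ewes was mixed for each library, so that each group had 4 libraries, called pools here, which stand for 60 ewes. The n given below counts pools, and the spread is that between mixes of 15 animals. The labels do not give the length or degree of the restriction, or the year of any pool.

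The capillaries of the brain are lined by endothelial cells sealed with tight junctions, so that nutrients enter through transporters and many drugs and toxins are pumped back out. Pericytes wrap these capillaries and help to keep the barrier closed, and smooth muscle cells surround the arterioles. The mediobasal hypothalamus is unusual in holding both kinds of vessel, since the capillaries of the median eminence are fenestrated and open to blood-borne hormones while those of the arcuate nucleus next to it are largely sealed. In mice, fasting has been described to open more fenestrated capillaries there through vascular endothelial growth factor from tanycytes, the glia that line the third ventricle.

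Levels are given as CPM, counts scaled to a common library size. They are not divided by transcript length, so the level of a gene is read against itself across pools. Sums of CPM over a list are weighted towards its genes with the most counts. In these bulk samples, fewer vessel cells and less RNA per vessel cell cannot be told apart. The endothelial genes CLDN5, PECAM1 and CDH5 and the pericyte genes PDGFRB and RGS5 were detected in all 8 pools. Library totals ranged from 41261774 to 42964514 counts in the food-restricted pools and from 36192025 to 48125991 in the well-fed pools. The lowest count of any of the 35 genes in a pool was 13, for SOX17, and the highest was 8118, for SLC3A2.

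The pools stand apart in a way that the feeding groups do not explain. The first principal component of log2 CPM held 34.7% of the variance and put food-restricted pools 1 and 2 with well-fed pools 3 and 4 on one side of 0, called the first set here, and the other 4 pools on the other side, called the second set. The sides were the same when the 35 genes were left out of the component. What separates the sets is not given in the labels.

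None of the 35 vessel genes passed the test between food-restricted and well-fed pools (edgeR quasi-likelihood, lowest adjusted p = 1.00). The background was as sparse, since 0.0055% of all tested genes passed, which is 1 gene. None of the 35 had an unadjusted p under 0.05, against 1.7% of all tested genes, and neither DESeq2 nor limma voom called any of them. The log2 fold change, food-restricted minus well fed, was above 0 in 22 of the genes and below 0 in 13, with a median of 0.03, against a median of 0.01 and 52.9% above 0 over all tested genes. It was within 0.2 of 0 in 28 of the 35. For 25 of the 35 genes the 95% interval of the fold lay within a 1.5-fold difference in either direction, and for 31 within a 2-fold difference. The 4 genes with wider intervals were CLDN5, SOX17, SOX18 and ABCC9.

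**Figure D1:**
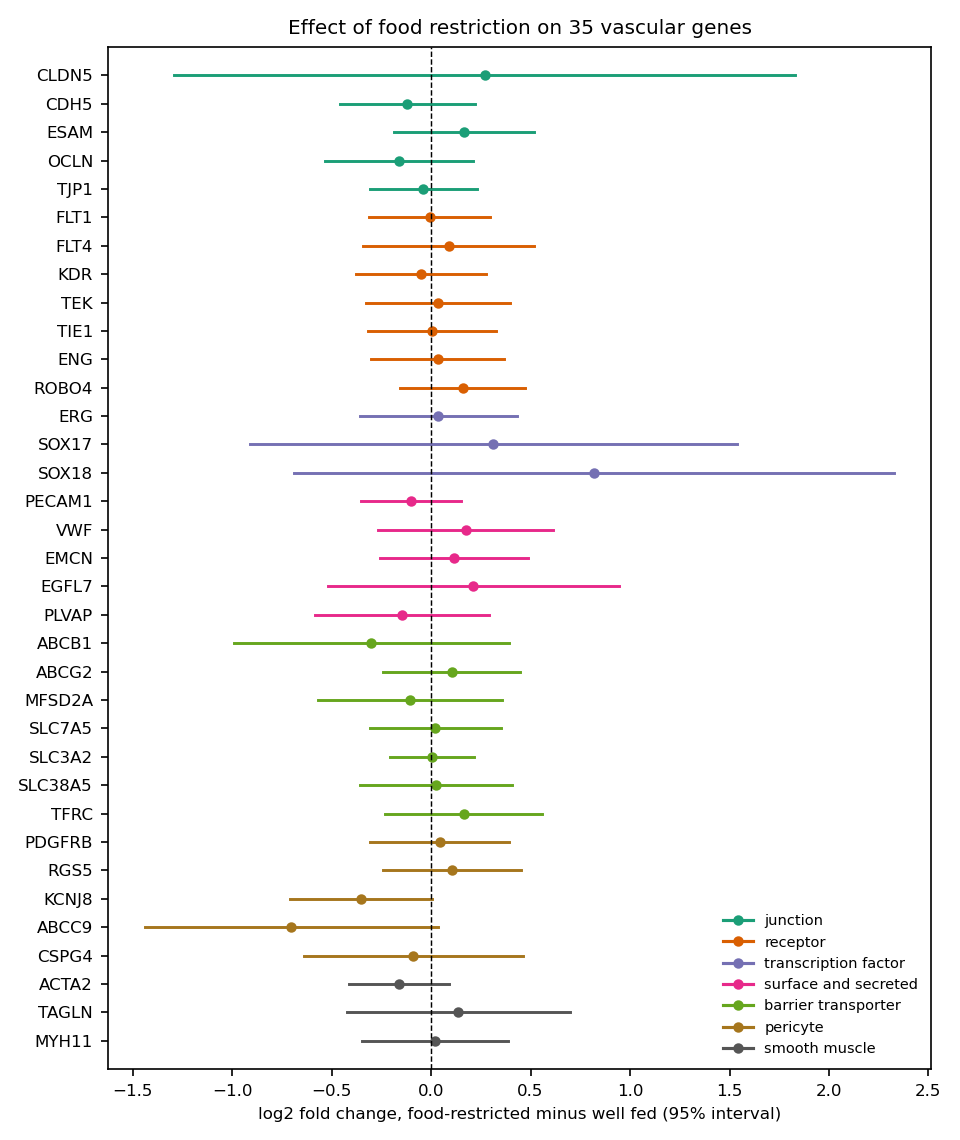
Log2 fold change of each of the 35 vessel genes, food-restricted minus well fed (x axis), with points for the estimate and lines for its 95% interval from edgeR, coloured by role (4 pools per group). All 35 intervals cross 0; the widest belong to CLDN5, SOX18 and SOX17, and those of KCNJ8 and ABCC9 lie almost wholly below 0.

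The pericyte genes KCNJ8 and ABCC9 were the only members whose pools did not overlap between the feeding groups. They encode the subunits of one channel, the potassium channel of vascular mural cells that opens when ATP falls: KCNJ8 is the pore (Kir6.1) and ABCC9 the sulphonylurea receptor (SUR2) that regulates it. KCNJ8 (gene ID 101118008) was at 9.67, 9.84, 10.06 and 8.82 CPM in food-restricted pools 1 to 4, against 10.08, 13.4, 10.8 and 14.7 CPM in well-fed pools 1 to 4. Every food-restricted pool thus lay below every well-fed pool, by a margin of a few hundredths of a CPM between food-restricted pool 3 and well-fed pool 1. The log2 fold change was -0.35 (SE 0.16; edgeR unadjusted p = 0.0519, adjusted p = 1.00).

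ABCC9 was at 1.15, 3.71, 2.92 and 3.37 CPM in food-restricted pools 1 to 4, against 5.56, 4.37, 4.40 and 3.80 CPM in well-fed pools 1 to 4. Again no food-restricted pool reached a well-fed one, and food-restricted pool 1 stood well below the other three. The log2 fold change was -0.70 (SE 0.33; edgeR unadjusted p = 0.0596, adjusted p = 1.00). It was -0.44 without food-restricted pool 1. An exact permutation test of log2 CPM, 2-sided, was run for all 35 genes. The exact p was 0.0286 for KCNJ8 and ABCC9, the smallest that 4 pools against 4 allow, and higher for each of the others. Any gene without overlap gets this p, so it restates the lack of overlap. It was not adjusted over the 35 genes. Non-overlap in 2 of 35 genes (5.71%) compares with 1.6% of all tested genes without overlap in either direction and 1.1% with all food-restricted pools below.

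KCNJ8 and ABCC9 were singled out for their lack of overlap, so each had to be lower with food restriction in both sets. KCNJ8 was 0.764 times as high in food-restricted as in well-fed pools within the first set and 0.803 times within the second. ABCC9 was 0.592 and 0.633 times as high within these sets. With the set as a block in the edgeR fit, the unadjusted p was 0.0394 for KCNJ8 and 0.0366 for ABCC9 and the adjusted p was 0.991 for both. The sets were read from these data and the 2 genes were singled out beforehand, so these p-values are no separate support. With that block 3 of the 35 genes had an unadjusted p under 0.05, the third being SOX18, against 4.49% of all tested genes, and 0 passed after adjustment, against 0.033% of all tested genes. KCNJ8 and ABCC9 lie side by side in the RefSeq gene order of the sheep, with 1 gene, an uncharacterised long noncoding RNA that overlaps both, between them. The count table has no row under the name of that RNA, and the strand setting of the counting is not given in the sources used here. The share of that RNA in the 2 counts was not tested. The subunits of the neuronal and beta-cell form of the channel, named after their values were seen, were at 21.2 ± 3.34 against 22.7 ± 1.83 CPM for KCNJ11 and at 60.8 ± 13.2 against 60.3 ± 6.90 CPM for ABCC8, in food-restricted and well-fed pools (mean ± SD, n = 4 each). Their log2 fold changes were -0.10 (SE 0.14) and 0.01 (SE 0.17).

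**Figure D2:**
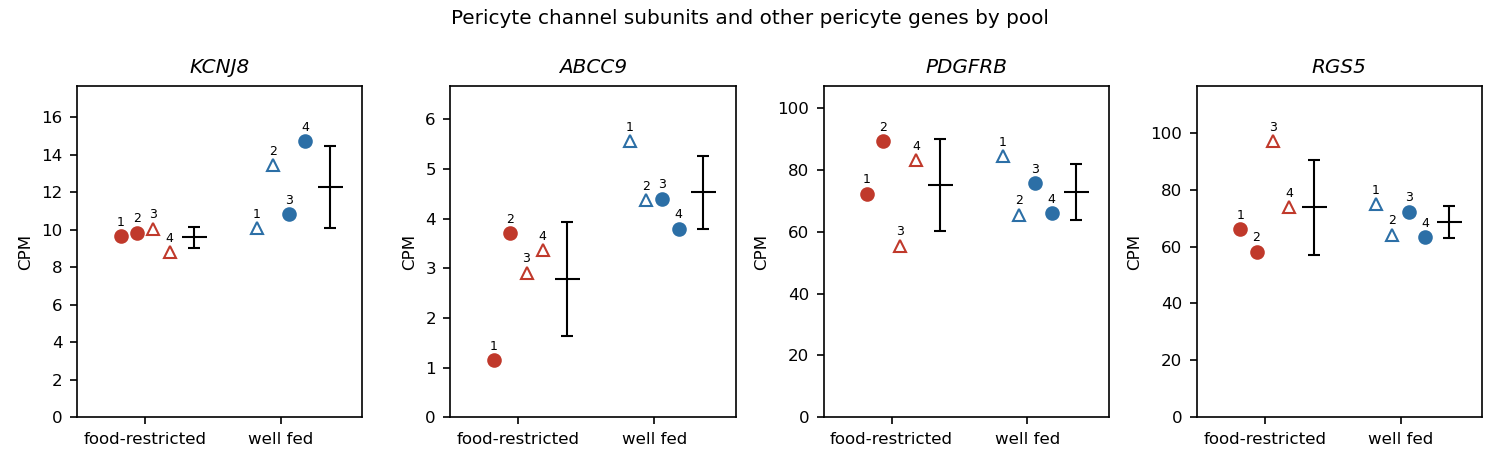
CPM of 4 pericyte genes in each pool (numbered points, food-restricted left in red, well fed right in blue), with mean and SD as bars; filled circles are the first set of pools and open triangles the second. KCNJ8 and ABCC9 do not overlap between the feeding groups, while PDGFRB and RGS5 overlap widely.

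The other pericyte genes did not share this pattern. PDGFRB, the receptor that holds pericytes to the vessel in answer to endothelial PDGF-B, was at 75.0 ± 14.8 CPM in food-restricted and 72.8 ± 8.99 CPM in well-fed pools (SD, n = 4 each). Its log2 fold change was 0.04 (SE 0.16). RGS5, a regulator of G protein signalling and a common pericyte marker, was at 73.8 ± 16.7 against 68.6 ± 5.74 CPM, with food-restricted pool 3 the highest of all at 97.0 CPM (log2 fold change 0.11, SE 0.16). CSPG4 encodes the NG2 proteoglycan, which oligodendrocyte progenitors carry too, and was at 11.4 ± 2.38 against 12.2 ± 4.18 CPM (log2 fold change -0.09, SE 0.25). Of the 5 pericyte genes 2 were above 0 and 3 below, and their median log2 fold change was -0.09. That median rested on single pools, as it was -0.22 without food-restricted pool 2, -0.21 without well-fed pool 2, -0.22 without well-fed pool 1, 0.00 without food-restricted pool 4, -0.02 without well-fed pool 4 and 0.08 without well-fed pool 3.

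The smooth muscle genes ACTA2 (smooth muscle actin), TAGLN (transgelin) and MYH11 (smooth muscle myosin) had log2 fold changes of -0.16 (SE 0.11), 0.14 (SE 0.25) and 0.02 (SE 0.17). ACTA2 was at 68.9, 69.3, 57.9 and 75.7 CPM in food-restricted pools 1 to 4 and at 78.4, 81.1, 70.2 and 73.9 CPM in well-fed pools 1 to 4. The groups overlapped, since food-restricted pool 4 lay above well-fed pools 3 and 4. Actin genes are alike in sequence, and how reads shared between them were counted is not given in the sources used here. MYH11 was at 39.4 ± 8.47 CPM in food-restricted and 38.8 ± 4.29 CPM in well-fed pools.

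Among the junction genes, CLDN5 varied most. Its product, claudin-5, is the main seal of brain endothelial tight junctions. CLDN5 (gene ID 101115864) was at 14.4, 22.7, 3.43 and 4.29 CPM in food-restricted pools 1 to 4 and at 2.29, 3.64, 16.1 and 15.1 CPM in well-fed pools 1 to 4. Both groups thus hold a high and a low pair of pools, and the highest pool had 9.94 times the level of the lowest. The mean was 11.2 ± 9.14 CPM with food restriction and 9.29 ± 7.33 CPM without (SD, n = 4 each). The log2 fold change was 0.27 (SE 0.71), and it was -0.32 without food-restricted pool 2. Its 95% interval ran from 0.409-fold to 3.56-fold, so this fit leaves the direction for CLDN5 undetermined. With the set of pools as a block, the log2 fold change of CLDN5 was 0.31 with a smaller error (SE 0.19; edgeR unadjusted p = 0.120, adjusted p = 0.991). The sets were read from these data, so the smaller error and this p-value are no separate support. Food-restricted pools had 1.19 times the level of well-fed pools within the first set and 1.30 times within the second.

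The other junction genes were much steadier. CDH5 (VE-cadherin, the adherens junction protein that marks endothelium) was at 14.9 ± 2.62 against 16.2 ± 0.778 CPM in food-restricted and well-fed pools, with a log2 fold change of -0.12 (SE 0.15). ESAM, an endothelial adhesion molecule, was at 24.1 ± 4.25 against 21.5 ± 2.71 CPM (0.16, SE 0.16). OCLN (occludin) was at 14.2 ± 3.23 against 15.8 ± 0.869 CPM (-0.16, SE 0.17), and TJP1 (the scaffold ZO-1, which many cell types use) at 93.6 ± 11.7 against 96.2 ± 8.63 CPM (-0.04, SE 0.12). For CDH5, ESAM, OCLN and TJP1 the 95% interval of the fold stayed between 0.691 and 1.43.

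The receptors that steer vessel growth and stability had mean levels close to each other in the feeding groups. KDR, the main signalling receptor for vascular endothelial growth factor A, was at 37.6 ± 2.73 CPM in food-restricted and 38.9 ± 7.76 CPM in well-fed pools, with a log2 fold change of -0.05 (SE 0.15). FLT1, which binds the same ligand with weaker signalling, was at 32.1 ± 4.65 against 32.3 ± 3.25 CPM (-0.01, SE 0.14). FLT4, the receptor for growth factors C and D and a gene of lymphatic vessels as well, was at 5.70 ± 0.597 against 5.35 ± 1.00 CPM (0.09, SE 0.19). TEK (Tie2, the angiopoietin receptor) and TIE1, its partner, had log2 fold changes of 0.03 (SE 0.16) and 0.00 (SE 0.15). ENG (endoglin, a co-receptor for the TGF-beta family) was at 55.1 ± 7.98 against 53.9 ± 8.63 CPM (0.03, SE 0.15), and ROBO4, which stabilises endothelium, at 17.1 ± 1.80 against 15.4 ± 1.63 CPM (0.16, SE 0.14). Of the 7 receptors 5 were above 0, with a median of 0.03.

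Of the transcription factors, ERG, which maintains endothelial identity, was at 6.82 ± 1.12 CPM in food-restricted and 6.65 ± 0.657 CPM in well-fed pools, with a log2 fold change of 0.04 (SE 0.18). SOX18, an endothelial SOX factor of arterial and lymphatic development, was at 7.02, 5.96, 0.817 and 2.09 CPM in food-restricted pools 1 to 4 and at 0.879, 0.858, 3.59 and 3.69 CPM in well-fed pools 1 to 4. Food-restricted pools 1 and 2 lay above every well-fed pool, food-restricted pool 4 lay between the well-fed pairs, and food-restricted pool 3 was the lowest of all. The log2 fold change was 0.82 (SE 0.68), and it ran from 0.38, without food-restricted pool 1, to 1.16 with 1 pool left out. Within the first set of pools SOX18 was 1.79 times as high in food-restricted as in well-fed pools, and within the second 1.67 times. With the set as a block its log2 fold change was 0.79 (SE 0.30; edgeR adjusted p = 0.991, unadjusted p = 0.0180), with the same limit as for CLDN5. In the RefSeq annotation SOX18 overlaps TCEA2, which had far more counts in every pool. TCEA2 was at 193 ± 43.4 against 193 ± 35.2 CPM (log2 fold change -0.01, SE 0.18). SOX17, the relative of SOX18 in arterial endothelium, was at 1.03 ± 0.466 against 0.830 ± 0.499 CPM (0.31, SE 0.55).

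The surface and secreted proteins included the marker of fenestrated vessels. PLVAP, which forms the diaphragms of fenestrae and caveolae and is absent from mature barrier capillaries, was at 39.3, 43.7, 26.1 and 34.7 CPM in food-restricted pools 1 to 4 and at 30.1, 34.4, 44.9 and 49.8 CPM in well-fed pools 1 to 4. The groups overlapped, the log2 fold change was -0.15 (SE 0.20), and the 95% interval of the fold ran from 0.667 to 1.22. VEGFA, the growth factor that keeps such vessels fenestrated and a gene named here outside the naming rule, was at 58.8 ± 2.55 CPM in food-restricted and 59.3 ± 5.27 CPM in well-fed pools (log2 fold change -0.01, SE 0.11). PECAM1, an adhesion protein of all endothelium, was at 35.4 ± 0.659 against 38.0 ± 4.15 CPM (-0.10, SE 0.11). VWF, the clotting glycoprotein stored in endothelium, was at 55.5 ± 16.1 against 49.2 ± 8.08 CPM (0.17, SE 0.20). EMCN, a sialomucin of capillaries and veins, was at 26.3 ± 5.66 against 24.3 ± 1.86 CPM (0.12, SE 0.17). EGFL7, a secreted endothelial factor, was at 89.8 ± 28.6 against 77.5 ± 36.3 CPM (0.21, SE 0.33). With the set of pools as a block EGFL7 was at 0.30 (SE 0.15; edgeR unadjusted p = 0.0585, adjusted p = 0.991), with the same limit as for CLDN5.

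The transporters of the barrier did not pass either. SLC7A5 and SLC3A2 form the exchanger LAT1 that carries large neutral amino acids and thyroid hormones into the brain. SLC7A5 was at 123 ± 24.6 CPM in food-restricted and 121 ± 14.0 CPM in well-fed pools (log2 fold change 0.02, SE 0.15). SLC3A2 was at 155, 165, 146 and 159 CPM in food-restricted pools 1 to 4 and at 148, 146, 169 and 159 CPM in well-fed pools 1 to 4. Of the 35 genes it had the smallest error, at a log2 fold change of 0.01 (SE 0.10) and a 95% interval of the fold from 0.867 to 1.16. Both genes are used by other cells too.

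The efflux pump ABCB1 (P-glycoprotein) was at 3.68, 9.17, 6.25 and 7.99 CPM in food-restricted pools 1 to 4 and at 11.5, 6.71, 9.76 and 5.32 CPM in well-fed pools 1 to 4. Its pools overlapped widely (log2 fold change -0.30, SE 0.31). ABCG2, the other main efflux pump, was at 53.8 ± 11.1 against 50.1 ± 5.46 CPM in food-restricted and well-fed pools (0.10, SE 0.16). MFSD2A, which imports lysophospholipids carrying docosahexaenoic acid and restrains transcytosis, was at 18.5 ± 4.97 against 20.0 ± 3.37 CPM (-0.11, SE 0.21). TFRC, the transferrin receptor that takes up iron, was at 37.9 ± 6.74 against 33.9 ± 6.84 CPM (0.16, SE 0.18). SLC38A5, a glutamine transporter, was at 7.32 ± 0.340 against 7.18 ± 1.29 CPM (0.03, SE 0.17). The 7 transporters, of which 5 were above 0, had a median log2 fold change of 0.02. The medians were -0.04 for junction genes, 0.31 for the 3 transcription factors, 0.12 for surface and secreted proteins and 0.02 for smooth muscle genes. Single pools moved these values. With 1 pool left out, the median ran from 0.03 to 0.71 for the transcription factors, where it was -0.10 within the first set, from -0.02 to 0.15 for surface and secreted proteins, from -0.10 to 0.04 for junction genes, from -0.03 to 0.09 for receptors, from -0.04 to 0.06 for transporters and from -0.08 to 0.11 for smooth muscle genes.

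**Figure D3:**
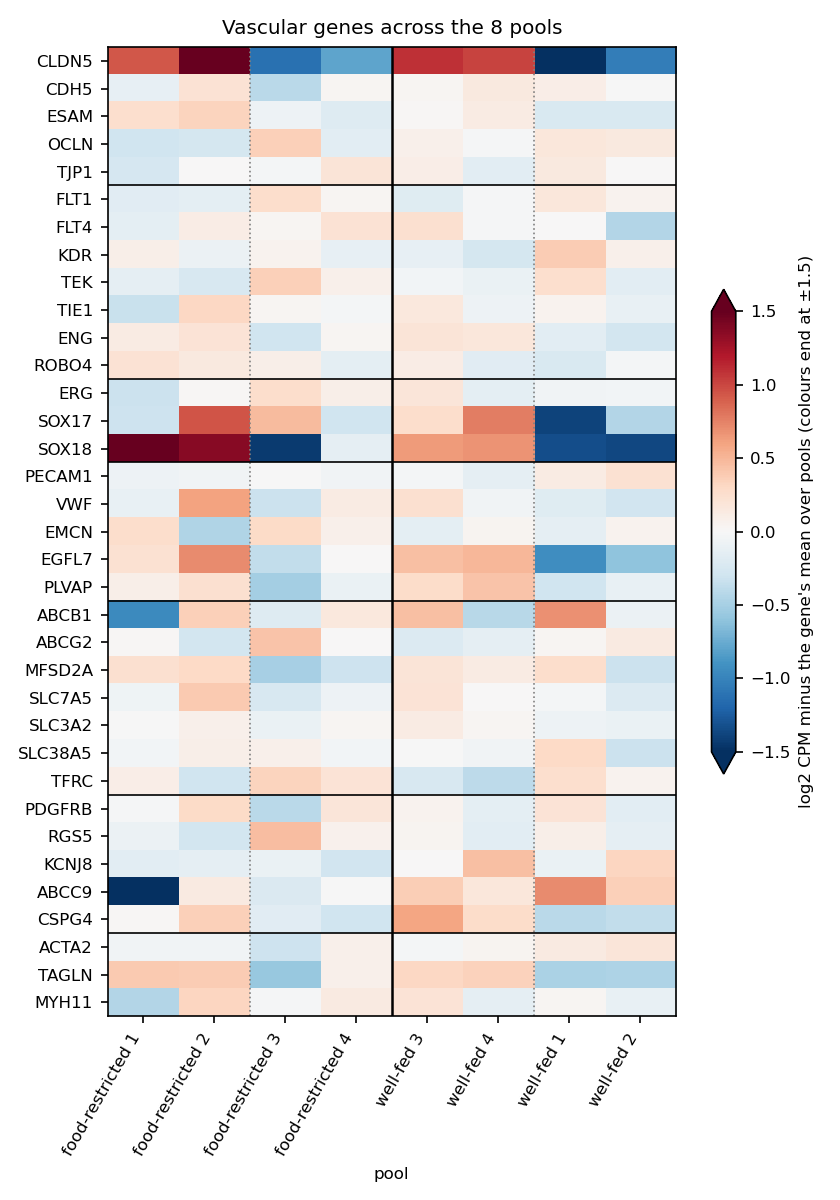
Log2 CPM of the 35 vessel genes in each pool minus the gene's mean over the 8 pools (colour, ending at ±1.5), with food-restricted pools left and well-fed pools right of the solid line and the 2 sets of pools split by dotted lines; horizontal lines part the roles. CLDN5, SOX18, EGFL7 and TAGLN are high in food-restricted pools 1 and 2 and well-fed pools 3 and 4, while most other genes show no such blocks.

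Differences between the sets of pools were larger than those between the feeding groups in several of the vessel genes. They are given without a test, because the sets were read from these data. Both feeding groups contribute 2 pools to each set. Of the 35 genes, 8 were higher in every pool of the first set than in any pool of the second (CLDN5, ESAM, ENG, SOX18, EGFL7, PLVAP, CSPG4 and TAGLN), against 14.2% of all tested genes, and 1 was lower (FLT1), against 8.93%. Together these 9 genes are 25.7% of the 35, beside 23.1% of all tested genes, so the vessel genes as a whole follow the sets about as often as other genes do.

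CLDN5 and SOX18 stood out by size. CLDN5 was 4.80 times as high in the first set as in the second among food-restricted pools and 5.27 times among well-fed pools. SOX18 was 4.47 and 4.19 times as high in these comparisons. Only 91 of the 18193 tested genes had a larger mean log2 difference in that direction than CLDN5, and 126 than SOX18. TCEA2, which SOX18 overlaps, was also higher in every pool of the first set. It was at 208, 247, 149 and 167 CPM in food-restricted pools 1 to 4 and at 151, 179, 216 and 228 CPM in well-fed pools 1 to 4. The part of TCEA2 in the SOX18 counts was not tested. EGFL7 was 1.58 and 2.35 times as high in the first set, in food-restricted and well-fed pools, and TAGLN was 1.52 and 1.73 times as high. EGFL7 was at 91.7, 128, 60.4 and 78.8 CPM in food-restricted pools 1 to 4 and at 41.1, 51.4, 107 and 110 CPM in well-fed pools 1 to 4, so that each first-set pool exceeded each second-set pool. No other of the 35 genes exceeded 1.5-fold in both feeding groups.

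TAGLN was at 71.4, 70.6, 36.6 and 56.9 CPM in food-restricted pools 1 to 4 and at 39.0, 39.4, 67.0 and 68.7 CPM in well-fed pools 1 to 4. The other smooth muscle genes did not part the same way, with ratios of the first set to the second of 1.03 and 0.904 for ACTA2 and 0.953 and 1.06 for MYH11 in food-restricted and well-fed pools. CDH5, an endothelial gene like CLDN5, had ratios of 1.17 and 1.03. CSPG4 was 1.35 and 1.78 times as high in the first set. The 5 progenitor markers, CSPG4 included, summed to 159 to 189 CPM in the first set and 134 to 148 CPM in the second. OLIG1 made up most of that difference, at 82.1 to 98.0 CPM in the first set and 53.0 to 59.3 CPM in the second, whereas PDGFRA was lower in every pool of the first set, at 51.5 to 60.3 CPM, than in any of the second, at 61.3 to 71.0 CPM. FLT1 went the other way, at 28.5 and 28.9 CPM in food-restricted pools 1 and 2 and 28.2 and 31.7 CPM in well-fed pools 3 and 4, against 32.5 CPM or more in each pool of the second set. TFRC was also lower in the first set, with ratios of 0.780 and 0.719, and so was ABCG2, with 0.782 and 0.838. Genes listed for the same cell type thus moved in different directions between the sets of pools. PDGFRA is also a marker of perivascular fibroblasts here. The share of each cell type in the sets was not tested.

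Single genes of other cells parted with the sets as well. MBP, a myelin gene, was at 2121, 2542, 1388 and 1253 CPM in food-restricted pools 1 to 4 and at 1103, 1131, 2580 and 1925 CPM in well-fed pools 1 to 4. PITX1, a pituitary gene, was at 84.2, 115, 24.3 and 43.0 CPM in food-restricted pools 1 to 4 and at 18.5, 24.5, 112 and 117 CPM in well-fed pools 1 to 4. The part of these cells in the vessel gene values was not tested.

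**Figure D4:**
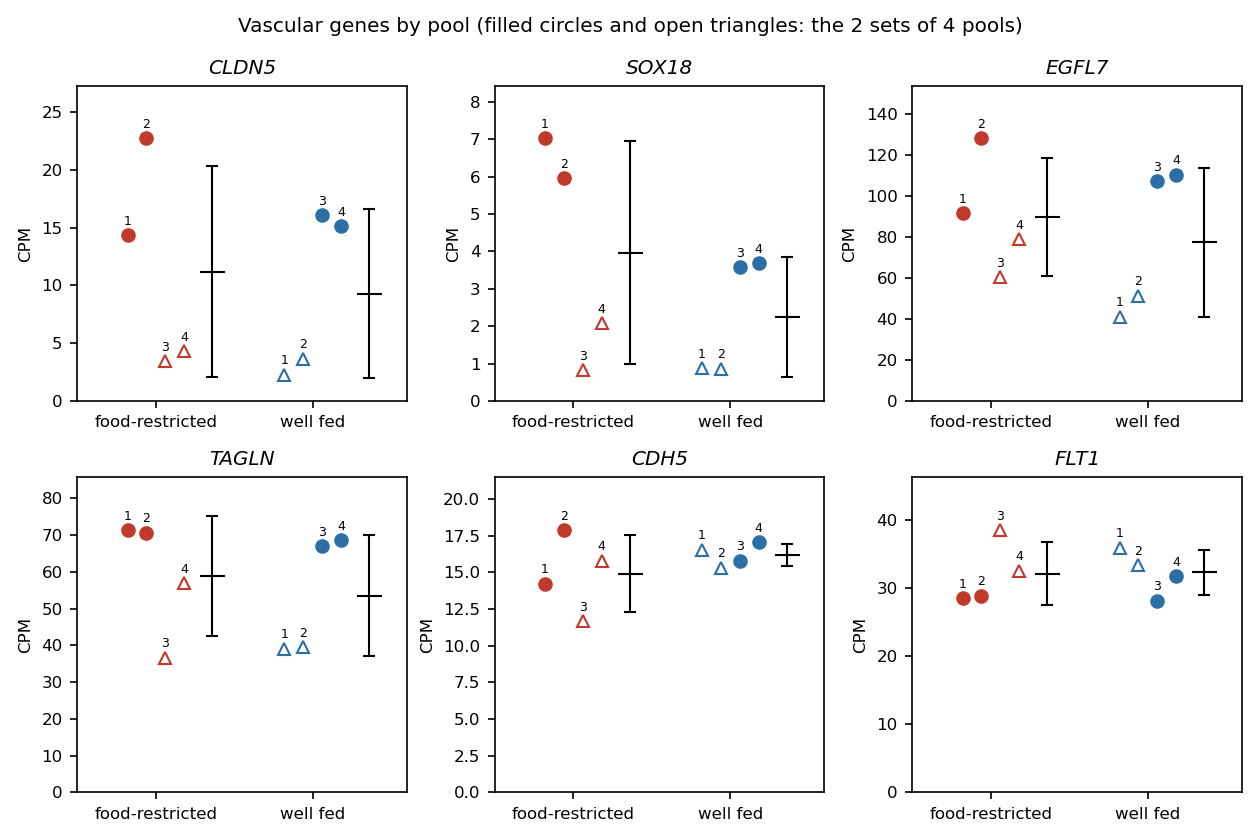
CPM of 6 vessel genes in each pool (numbered points, food-restricted left in red, well fed right in blue), with mean and SD as bars; filled circles are the first set of pools and open triangles the second. CLDN5 and SOX18 differ over 4-fold between the sets in both feeding groups, CDH5 overlaps, and FLT1 is lower in the first set.

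**Figure D5:**
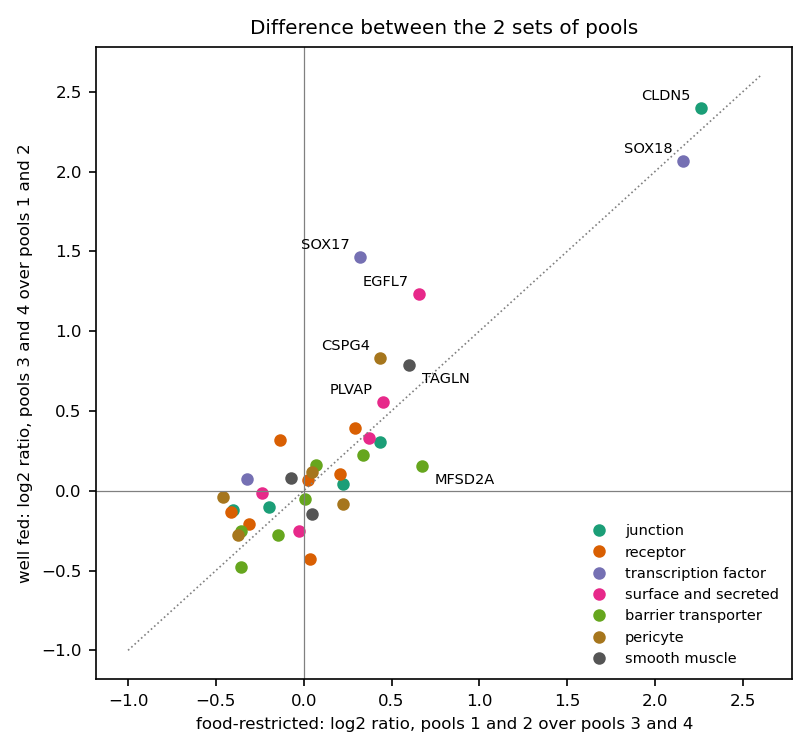
Log2 ratio of the first to the second set of pools for each of the 35 genes, among food-restricted pools (x axis) and among well-fed pools (y axis), coloured by role, with equal ratios along the dotted line. CLDN5 and SOX18 lie apart in the upper right corner, with SOX17, EGFL7, CSPG4 and TAGLN between them and the rest.

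Genes around the 35 were looked at in lists that do not contain them, and no gene of any of these lists passed. The ligands that act on vessels had 13 of 19 tested members above 0 and 6 below (median log2 fold change 0.06). Other endothelial receptors and signalling genes had 8 above and 9 below (17 tested, median -0.02), and 1 had an unadjusted p under 0.05. That gene was NOTCH1, a receptor that many cells use, at 62.3, 71.4, 33.99 and 48.3 CPM in food-restricted pools 1 to 4 and 28.6, 23.1, 46.6 and 38.4 CPM in well-fed pools 1 to 4. Its pools overlapped, with a log2 fold change of 0.66 (SE 0.26; edgeR adjusted p = 1.00).

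The Wnt signalling list, which induces barrier properties in endothelium, had 10 of 16 tested genes above 0 and 6 below, with a median of 0.10. FOXC1, a forkhead factor of mural cells and meninges, was the gene with the smallest p in that list. It was at 13.1, 9.65, 10.6 and 10.3 CPM in food-restricted pools 1 to 4 and at 7.10, 7.62, 5.61 and 8.11 CPM in well-fed pools 1 to 4. No well-fed pool reached the lowest food-restricted one, and the log2 fold change was 0.62 (SE 0.17; edgeR unadjusted p = 0.00459, adjusted p = 1.00). FOXF2, a pericyte forkhead factor, was at 0.39 (SE 0.30), with overlap between the groups.

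Other barrier transporters and junction genes had 11 above 0 and 17 below (28 tested, median -0.04). SLCO1C1, which carries thyroxine across the barrier, was at 23.2, 17.1, 28.3 and 19.1 CPM in food-restricted pools 1 to 4 and at 33.5, 29.0, 24.6 and 22.6 CPM in well-fed pools 1 to 4, with a log2 fold change of -0.33 (SE 0.19). The groups overlapped through food-restricted pool 3. ABCC5, an efflux pump of the same list, did not overlap, at 159, 189, 186 and 180 CPM in food-restricted pools 1 to 4 and at 216, 191, 199 and 194 CPM in well-fed pools 1 to 4 (log2 fold change -0.17, SE 0.10; edgeR adjusted p = 1.00). In the list of amino acid and iron transport, with 5 of 14 above 0 and 9 below (median -0.06), SLC7A8 showed no overlap. This exchanger, LAT2, which also pairs with SLC3A2, was at 24.2, 28.9, 25.01 and 28.4 CPM in food-restricted pools 1 to 4 and at 36.2, 32.0, 36.05 and 30.6 CPM in well-fed pools 1 to 4 (log2 fold change -0.34, SE 0.12; edgeR unadjusted p = 0.0175, adjusted p = 1.00). Other pericyte and smooth muscle genes had 11 above and 12 below (23 tested, median -0.01), and vessel inflammation and adhesion genes 3 above and 3 below (6 tested, median 0.01).

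Markers of cells next to the vessel wall were read in the same fit. The red blood cell gene HBB was the only tested marker of that list at 34, 19, 0 and 31 counts in food-restricted pools 1 to 4 and at 80, 35, 179 and 57 counts in well-fed pools 1 to 4. The red cell markers ALAS2 and SLC4A1 were at 0 in all pools. Perivascular macrophage markers summed to 11.3 to 14.0 CPM in food-restricted and 13.9 to 16.2 CPM in well-fed pools over 3 tested genes. Among them MRC1 was at 1.44 ± 0.181 against 2.68 ± 0.341 CPM (SD, n = 4 each) without overlap (log2 fold change -0.89, SE 0.26; edgeR adjusted p = 1.00). Perivascular fibroblast and meningeal markers summed to 562 to 609 CPM against 580 to 681 CPM over 8 genes. Among them the collagen gene COL3A1 was at 33.0 ± 5.38 against 43.7 ± 2.38 CPM (SD, n = 4 each), with every food-restricted pool below every well-fed pool (log2 fold change -0.40, SE 0.14; edgeR unadjusted p = 0.0138, adjusted p = 1.00). Arterial endothelial markers summed to 102 to 128 against 99.97 to 122 CPM over 5 genes, of which 2 were above 0 and 3 below. The gap junction gene GJA5 was at 5.70 ± 0.748 against 7.92 ± 1.49 CPM (-0.47, SE 0.19). The arterial markers SEMA3G (0.04, SE 0.16) and EFNB2 (0.09, SE 0.11) went the other way. Venous markers summed to 121 to 151 against 113 to 131 CPM over 4 genes. The tested genes below 0, as KCNJ8 and ABCC9 were, numbered 1 of 1 in the red cell list, 3 of 3 in the macrophage list and 6 of 8 in the fibroblast list, against 8561 of all 18193 tested genes. Some of these fold changes were smaller than their error, as for LYVE1 at -0.28 (SE 0.34) and F13A1 at -0.04 (SE 0.15) among macrophage markers. Among fibroblast markers DCN was at -0.05 (SE 0.16) and LUM at -0.01 (SE 0.15). LYVE1 is in the lymphatic list too. Lists of other cells varied. Genes above 0 were 5 of 5 for tanycytes, 4 of 4 for ependymal cells, 5 of 6 for neurons and 5 of 6 for oligodendrocytes. They were 3 of 6 for astrocytes, 3 of 6 for microglia, 2 of 5 for oligodendrocyte progenitors, 2 of 6 for the pituitary and 3 of 5 for choroid plexus. In endothelium they were 2 of 5 for arterial, 3 of 4 for venous and 3 of 4 for lymphatic markers. The part of any of these cells in the values of the channel subunits was not tested.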

How the data were processed

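The authors deposited a single table of unnormalised gene counts, its 8 columns named for the pools, per the file headers. Libraries were made with a stranded mRNA kit, per the labels' protocols. The tools were featureCounts 2.0.0, TopHat2 2.1.1, SAMtools 1.9, Bowtie2 2.3.5.1, FastQC and bcl2fastq 2.20, per the submitters' processing notes. The sources used here do not give the genome build, annotation release, strand setting or treatment of shared reads, so no coordinates are printed. Of the 35 genes, 12 overlap another gene in RefSeq and are uncertain to that extent. The overlapping gene codes for protein at PECAM1 (MILR1), SOX18 (TCEA2), SOX17 and TEK. It does not at OCLN, TJP1, KDR, ENG, PLVAP, SLC3A2, KCNJ8 and ABCC9. The table's IDs matched RefSeq in 83.6% of cases, and 471 LOC names were replaced by symbols.

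The analysis of counts used edgeR 4.0.16 under R 4.3.3, with filterByExpr (minimum count 10, minimum total 15), TMM scaling, and the quasi-likelihood F test of food-restricted against well-fed pools with no covariate. P-values were adjusted by Benjamini-Hochberg over all 18193 genes kept, with a threshold of 0.05. The SE was derived from the fold change and its F statistic, and 95% intervals use the t distribution of the fit. Log2 CPM has a prior count of 2. Intervals cover the spread between pools, which the labels name as replicates. No pair of pools of the same feeding group was alike within counting error (lowest chi-square per degree of freedom 23.9). Pairs across the groups were not compared in this way. A count of 0 allows up to 3 counts, which covers counting error only.

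All 35 genes are named. From the other lists, genes called and up to 3 with the smallest p could be named; others are said to be outside the rule. The 35 genes, the lists and the block by the set of pools were chosen with earlier results of these data known. Alternatives were RLE, upper-quartile and total-count scaling, no filter, a filter of 1 CPM in any 4 pools, the replicate number or the set of pools as a block, each pool left out, DESeq2 1.42.0 and limma 3.58.1 voom. Fits within each set of 4 pools were added after seeing the data. Figures were drawn with Python 3.11.15 and matplotlib 3.10.9.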

Additional observations from a re-analysis of the deposited data

How the results depend on the processing

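None of the 35 vessel genes was called under any alternative, though the filter of 1 CPM in any 4 pools left SOX17 out of the fit. Over all genes the count called higher, 1 as reported, was 0 without each pool in turn and with the replicate block, 2 with the set of pools as a block, and 0 within the first and 6 within the second set. The count called lower, 0 as reported, was 4 with the set as a block and 3 with DESeq2. The replicate numbers do not pair the pools, since same-numbered pools deviated oppositely (correlations across genes between -0.42 and -0.21). The pericyte median was between -0.22 and 0.077 with 1 pool left out, and -0.25 within the first set. TIE1 turned to -0.0079 with upper-quartile scaling, -0.0032 with no filter, -0.011 with the replicate block and -0.015 with voom, SLC3A2 to -0.0029 with upper-quartile scaling, and MYH11 to -0.0062 with voom. With 1 pool left out, 19 log2 fold changes crossed 0, with lowest and highest values of -0.32 and 0.68 for CLDN5, -0.10 and 0.039 for TJP1, -0.11 and 0.057 for FLT1, -0.025 and 0.21 for FLT4, -0.14 and 0.085 for KDR, -0.094 and 0.13 for TEK, -0.10 and 0.11 for TIE1, -0.049 and 0.13 for ENG, -0.052 and 0.14 for ERG, -0.017 and 0.30 for VWF, -0.042 and 0.22 for ABCG2, -0.22 and 0.019 for MFSD2A, -0.11 and 0.11 for SLC7A5, -0.025 and 0.064 for SLC3A2, -0.067 and 0.14 for SLC38A5, -0.034 and 0.16 for PDGFRB, -0.054 and 0.22 for RGS5, -0.22 and 0.14 for CSPG4 and -0.079 and 0.15 for MYH11. The other 16 genes kept their direction under every alternative over 7 or 8 pools in which they were fitted. Within the first set, however, SOX17 was at -0.10, PECAM1 at 0.012 and EMCN at -0.00063. KCNJ8 was between -0.44 and -0.25 and ABCC9 between -0.86 and -0.44 with 1 pool left out. The cause of these shifts was not tested. With 4 pools of 15 ewes per group, the 95% interval stayed within 1.5-fold for 25 of the 35 genes and was narrowest for SLC3A2, at 0.867 to 1.16.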
